A study of Aspergillus nidulans with 38 samples.

Results

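The 10 genes described here encode chaperones and components of the unfolded protein response of *Aspergillus nidulans*. They were taken by gene identifier and are *hsp104* (AN0858), *hsp90* (AN8269), *hsp70* (AN5129), *hsp60* (AN6089), *ssc70* (AN6010), the heat shock factor gene (AN8035), *bipA* (AN2062), *pdiA* (AN7436), *clxA* (AN3592) and *hacA* (AN9397). They are 10 of the 9541 genes in the count tables, and all 10 were among the 8290 genes tested, which had a read in 2 or more replicates at each of the time points. The lowest raw count of any of the 10 in any library was 412 reads, for the heat shock factor gene.

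The study followed the response of the mold to damage of its cell wall. The parental strain FGSC A1405 (AN1405 in the sample labels) was grown in 1.2 L shake flasks of YGV medium at 28 °C for about 20 h, and micafungin, which inhibits β-1,3-glucan synthase, was then added. The dose per ml was 20 ng, scaled to a biomass of 1 g/kg. RNA was sequenced from mycelia taken at 0 min and at 12 later times up to 120 min, in 3 biological replicates, each a flask sampled in series. This gave 38 libraries at 13 time points, with 3 libraries at each except 15 min, which had 2. The strain and genotype are the same throughout. The study's methods place 0 min just before micafungin was added, stated for its phosphoproteomic samples, with which the RNA cultures shared their treatment. The 0 min group thus had no drug, and the later groups share 1 dose and differ in time. No untreated flask was followed over the same times, so in every comparison with 0 min the drug and the time in the flask cannot be told apart. In such bulk RNA, fewer cells using a gene and less of its RNA in each cell cannot be told apart either.

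Libraries held between 5814843 and 10846567 reads assigned to genes. *agsA*, an α-1,3-glucan synthase gene, was higher at 75 to 120 min by 2.58 on the log2 scale. The conidiation regulator gene *brlA* was higher by 3.24, and each rose in 3 of 3 flasks. The study lists both as rising in these same libraries, so their rise is no separate check that the flasks responded. The conidiation regulator genes *abaA* and *wetA* differed by 0.48 and 0.29 (edgeR adjusted p 0.480 and 0.313). *abaA* was lower in flask 3 only (-0.80), and *wetA* in flask 2 only (-0.21). Of the 15 min libraries, the second carries the label replicate 3 but sits in a column numbered for replicate 2. Its *bipA* level of 6291 lay between those of flask 3 at 10 min (6689) and 20 min (6215), and below those of flask 2 at 10 min (14001) and 20 min (10583). Not every gene told the flasks apart in this way. Its *hsp90* level of 6182 lay between the 10 and 20 min levels of both flasks, and its *hsp104* level of 633 lay below those of both. Which flask it came from was not tested.

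Chaperones bind unfolded proteins and help them to fold, or keep them from clumping. In fungi, the genes of many cytosolic and mitochondrial chaperones are driven by heat shock factor when unfolded protein builds up. Unfolded protein in the endoplasmic reticulum (ER) is sensed by the kinase and nuclease Ire1 (IreA in *A. nidulans*), which cuts an intron from the *hacA* transcript, and the HacA protein made from it raises the genes of ER chaperones and folding enzymes. That intron cannot be seen in counts per gene, so *hacA* values below are the total of both forms.

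Levels are given as normalized counts, which are read counts divided by a size factor for the depth of each library. Per kilobase of RefSeq gene span, introns included, *hsp70* had the highest mean normalized count at 0 min (8049), followed by *hsp90* (5669) and *bipA* (3660). The mean per kilobase was 2657 for *hacA*, 2099 for *pdiA*, 2046 for *clxA*, 1813 for *ssc70*, 920 for *hsp60*, 368.5 for *hsp104* and 261 for the heat shock factor gene. In this order the flasks did not overlap between *bipA* and *hacA*, between *hsp60* and *hsp104*, or between *hsp104* and the heat shock factor gene, and all other neighbours overlapped. Together the 10 genes took 0.381% to 1.165% of all counted reads, with a median of 0.612%.

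Over the course, 3 patterns stood out. The cytosolic and mitochondrial chaperone genes *hsp90*, *hsp70*, *hsp60* and *ssc70* were above their 0 min levels in flask 1 and below them in flasks 2 and 3 at 20 to 30 min. The ER genes *bipA*, *pdiA* and *clxA* moved with each other, *bipA* less closely in flask 3. They were below their 0 min levels from 50 to 120 min in most libraries. The disaggregase gene *hsp104* was higher at 75 to 120 min, from a time that differed between the flasks. The plot of every library shows these patterns gene by gene.

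**Figure D1:**
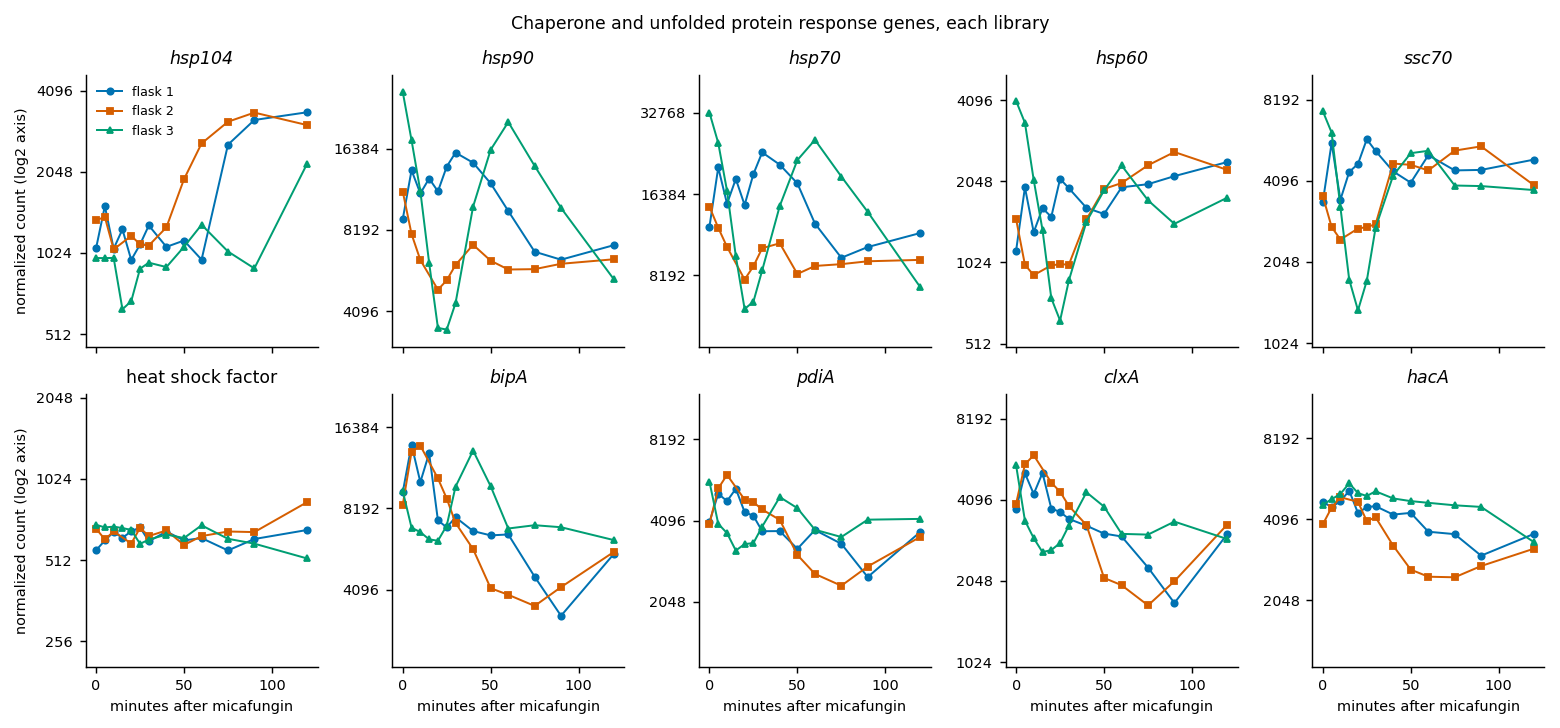
Normalized count (log2 axis, each panel spanning the same fold range) of the 10 genes against minutes after micafungin, with a line for each of the 3 flasks and a point for each of the 38 libraries. The *hsp90* level in flask 3 goes from 26586 at 0 min to 3496 at 25 min and 20563 at 60 min, *hsp104* reaches 3403, 3051 and 2193 at 120 min, and the heat shock factor gene stays between 519 and 839.

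Each later time was compared with 0 min, as were the mean of 20, 25 and 30 min (early) and the mean of 75, 90 and 120 min (late). All 38 libraries entered a single fit with the flask as a block, by edgeR's quasi-likelihood test with Benjamini-Hochberg adjustment over the 8290 genes, and a gene with an adjusted p below 0.05 is called. The 3 libraries of a flask within a window are not independent, so these p-values describe the spread of these libraries rather than of separate cultures. Early, none of the 10 genes was called in either direction, with 3 at an unadjusted p below 0.05 in edgeR, and DESeq2 called 0 as well. Among all genes tested, 1.21% were called higher and 1.07% lower early. Late, 1 of the 10 was called higher, against 17% of all genes, and 5 were called lower, against 14.2% of all genes. Late, the 10 genes had a median log2 fold change of -0.41, and all genes tested had one of -0.02. Called or not, 6 of the 10 were below 0 min late in all 3 flasks, against 23.7% of all genes tested. Above 0 min in all 3 flasks was 1 of the 10 (*hsp104*), against 24.0%. Without the 0 min library of flask 3, 1 of the 10 was called higher and 1 lower late, a setting chosen after the data were seen. Without the replicate block, 1 was called higher (*hsp104*) and 1 lower (*clxA*). When each flask gave a single value to limma, none of the 10 was called late, and only 1 of all 8290 genes was called higher and 0 lower.

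**Figure D2:**
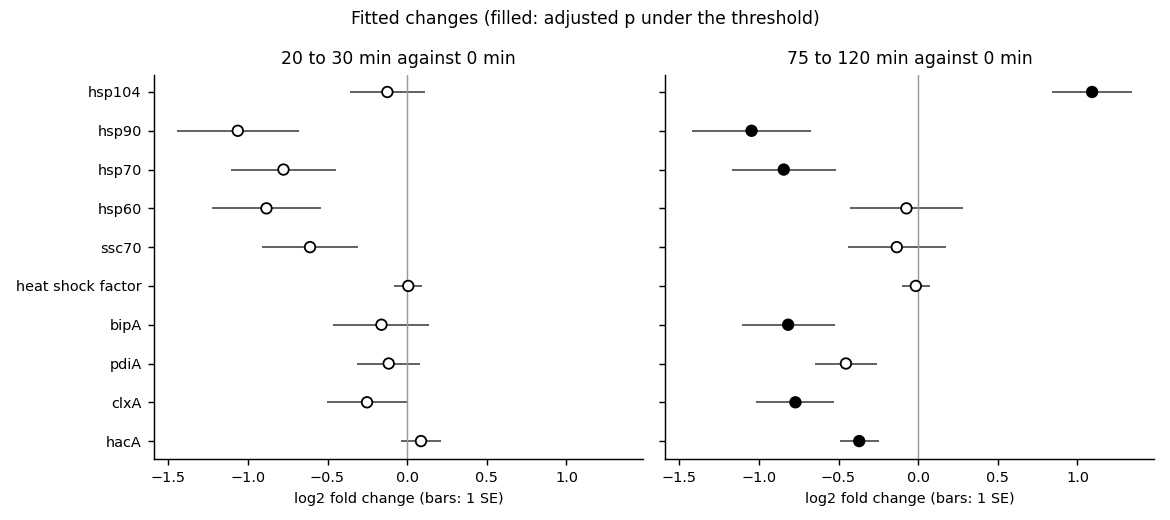
Fitted log2 fold change of each of the 10 genes at 20 to 30 min (left) and at 75 to 120 min (right) against 0 min, with bars of 1 SE from edgeR and filled points for an adjusted p below 0.05. No point is filled on the left, and on the right *hsp104* (1.09) is the filled point above 0, with *hsp90*, *hsp70*, *bipA*, *clxA* and *hacA* filled below 0.

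*hsp90* and *hsp70* encode the abundant cytosolic chaperones, Hsp90 acting late in the folding of kinases and other client proteins and Hsp70 on short exposed stretches of newly made or damaged proteins. At 0 min the *hsp90* level was 8975, 11363 and 26586 in flasks 1, 2 and 3, and that of *hsp70* was 12394, 14733 and 32878. Flask 3 was above both other flasks by at least 2-fold for each gene at that time, as it also was for *hsp60* and *ssc70*. Among all genes tested, 3.90% stood at least 2-fold higher in flask 3 than in both others at 0 min.

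From that start, the *hsp90* level in flask 3 was 17597, 11401, 6182, 3546 and 3496 at 5, 10, 15, 20 and 25 min. It then stood at 9990.5, 20563, 9875 and 5375 at 40, 60, 90 and 120 min. The lowest and the highest *hsp90* level of this flask, a 7.61-fold range, were thus the lowest and the highest of all 38 libraries. In flask 1 the level was above its 0 min value from 5 to 60 min, with 15836 at 30 min. In flask 2 it was below its 0 min value at every later time, with 4914 at 20 min. The *hsp70* levels took the same course, with 6149 at 20 min and 26050 at 60 min in flask 3, 23405 at 30 min in flask 1 and 7906 at 20 min in flask 2.

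Early, the log2 ratio of *hsp90* to the flask's own 0 min library was 0.60, -1.07 and -2.81 in flasks 1, 2 and 3, and that of *hsp70* was 0.61, -0.72 and -2.23. The flasks thus differed in sign. The fitted early change was -1.06 (SE 0.38, edgeR adjusted p 0.163) for *hsp90* and -0.78 (SE 0.33, edgeR adjusted p 0.252) for *hsp70*, and neither passed the test. A fall of at least 2 on the log2 scale in flask 3 early was found for *hsp90*, *hsp70* and *hsp60* and for 1.73% of all genes tested.

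Late, the 9 *hsp90* levels ran from 5375 to 14138, with a median of 6372, and 7 of the 9 were below all 3 libraries at 0 min. The other 2 were the 75 and 90 min libraries of flask 3, which lay between the 0 min levels of the flasks. The fitted late change was -1.05 (SE 0.38, edgeR adjusted p 0.0355) for *hsp90* and -0.84 (SE 0.33, edgeR adjusted p 0.0499) for *hsp70*. Each was lower in 3 of 3 flasks, as were 23.7% of all genes tested. Without the 0 min library of flask 3 the fitted late changes were -0.59 (adjusted p 0.352) and -0.42 (adjusted p 0.443), and neither passed. Both calls were also lost when any 1 flask was left out, with adjusted p of 0.0667 to 0.142 for *hsp90* and 0.081 to 0.159 for *hsp70*.

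Despite these swings, the 2 genes kept close to each other within each library. The log2 ratio of the *hsp70* to the *hsp90* normalized count lay between 0.31 and 0.97, while the levels themselves spanned 5.35-fold and 7.61-fold. Over the 38 libraries, which share flasks, the Pearson r of their log2 normalized counts was 0.985, and it was 0.972, 0.926 and 0.992 within flasks 1, 2 and 3. Of the 8289 other genes tested, *hsp90* was the most like *hsp70* by this measure. Next came AN2731 (r 0.939, annotated by the study as mitochondrial targeting protein Mas1), *sti1* (r 0.898, the co-chaperone that links Hsp70 to Hsp90), AN4192 (r 0.889) and AN5141 (r 0.863). In all, 12 genes had an r above 0.8 with *hsp70*.

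The mitochondrial chaperone genes are *hsp60*, whose product forms the folding chamber of the matrix, and *ssc70*, for the matrix Hsp70 that pulls in and folds imported proteins. At 0 min the *hsp60* level was 1134, 1480 and 4065 in flasks 1, 2 and 3, and that of *ssc70* was 3420.5, 3591 and 7416. Flask 3 was again the high one. Its *hsp60* level was 624 at 25 min and its *ssc70* level 1354 at 20 min, the lowest of all libraries for each gene.

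Early, the log2 ratio of *hsp60* to its own 0 min library was 0.69, -0.56 and -2.45 in flasks 1, 2 and 3, and late it was 0.94, 0.70 and -1.31. For *ssc70* it was 0.62, -0.38 and -1.99 early and 0.43, 0.44 and -0.94 late. Relative to 0 min, flasks 1 and 2 were thus higher and flask 3 lower late. Fitted over the flasks, the late change was -0.07 (SE 0.35, edgeR adjusted p 0.899) for *hsp60* and -0.13 (SE 0.31, edgeR adjusted p 0.781) for *ssc70*. Without the 0 min library of flask 3 it was 0.68 (adjusted p 0.203) and 0.43 (adjusted p 0.373), so the sign of both rested on that library, and neither passed in either fit.

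Between the early and the late times, which does not involve 0 min, *hsp60* rose by 0.81 on the log2 scale (SE 0.25, edgeR adjusted p 0.0117). Its level went from an early range of 1512 to 2090.5 in flask 1, 999.6 to 1008.5 in flask 2 and 624 to 879 in flask 3 to a late range of 1998 to 2413, 2258 to 2629 and 1424 to 1780. Early and late levels did not overlap in flasks 2 and 3, and in flask 1 the 25 min level was above the 75 min level. Among all genes tested, 18.8% were called higher and 20.7% lower late than early, and of the 10 genes 2 were called higher and 3 lower. The call for *hsp60* was lost without flask 2, at 0.58 (adjusted p 0.199). For *ssc70* the change was 0.48 (SE 0.22, edgeR adjusted p 0.0891). Over the 38 libraries the r of *hsp60* with *ssc70* was 0.86.

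*hsp104* encodes the protein that, in budding yeast, takes apart protein aggregates together with Hsp70. Its level at 0 min was 1065.5, 1354 and 981 in flasks 1, 2 and 3. In flask 1 it was 967, 2580, 3186 and 3403 at 60, 75, 90 and 120 min. In flask 2 it was 1922 at 50 min, and 2609, 3139, 3394 and 3051 at the same 4 times. In flask 3 it was 1303, 1037, 898 and 2193, so this flask was above the range of 0 min at the last time only. Of the 9 late libraries, 7 were above all libraries at 0 min and 1, that of flask 3 at 90 min, was below all of them.

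By edgeR's quasi-likelihood test, *hsp104* rose by 1.09 late (SE 0.25, adjusted p 0.00165), higher in 3 of 3 flasks with log2 ratios of 1.51, 1.24 and 0.37. Between early and late it rose by 1.22 (SE 0.17, adjusted p 2.61e-06), and early it had differed from 0 min by -0.12 (adjusted p 0.835). At single times it passed the test at 75 min (0.91, adjusted p 0.0326), 90 min (1.04, adjusted p 0.0119) and 120 min (1.33, SE 0.29, adjusted p 0.00118). Among all genes tested, 9.10%, 11.8% and 16.6% were called higher at these times. Without flask 1 the late value was 0.87 and the 120 min value 1.16, and neither passed (adjusted p 0.0855 and 0.0528). With a single value per flask in limma, the late value was 1.04 (adjusted p 0.171).

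The course of *hsp104* was unlike that of *hsp70* and *hsp90*, with an r of -0.26 and -0.22 over the 38 libraries. Within flasks 1, 2 and 3 the r was -0.575, -0.316 and 0.133 with *hsp70* and -0.731, -0.121 and 0.203 with *hsp90*. The sign thus differed between flasks. The 5 genes most like *hsp104*, of 8289, were AN5781 (r 0.931), AN2585 (r 0.924), AN7683 (r 0.910), AN0867 (r 0.908) and AN1549 (r 0.908), and 111 genes had an r above 0.8. Its r with *hacA* was -0.83, and -0.71, -0.84 and -0.90 within the flasks. The log2 ratio of the *hsp104* to the *bipA* normalized count within a library ran from -3.89 to -0.04.

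**Figure D3:**
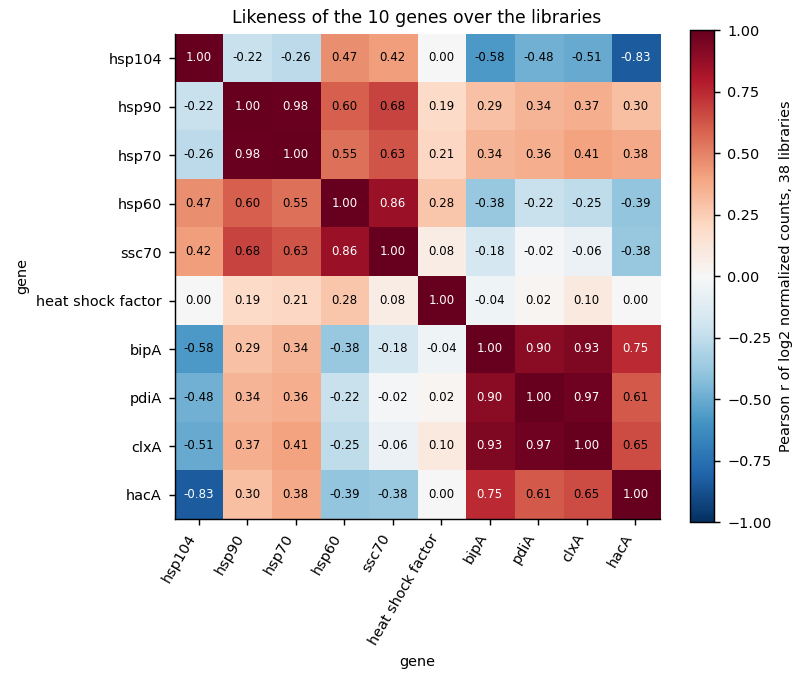
Pearson r of log2 normalized counts over the 38 libraries, which share flasks, for each pair of the 10 genes, from -1 (blue) to 1 (red). *hsp90* with *hsp70* (0.98), *hsp60* with *ssc70* (0.86) and the 3 ER genes (0.90 to 0.97) form the red blocks, and *hsp104* with *hacA* (-0.83) is the darkest blue.

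The heat shock factor gene encodes the transcription factor that drives heat shock genes. Its level was 556, 670 and 692 at 0 min and 662, 839 and 519 at 120 min in flasks 1, 2 and 3. The groups overlapped, and over all 38 libraries its level spanned 1.62-fold, the narrowest range of the 10 genes. The fitted change was 0.01 early (SE 0.09, edgeR adjusted p 0.978) and -0.01 late (SE 0.09, edgeR adjusted p 0.918). Heat shock factor is also regulated as a protein, which these counts do not measure. In its phosphoproteomic data the study lists a transcription factor it names Hsf1, without a gene identifier, among those with changing phosphorylation after micafungin.

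*bipA* encodes the Hsp70 of the ER, *pdiA* a disulfide isomerase that forms and reshuffles disulfide bonds, and *clxA* calnexin, a membrane-bound chaperone of glycoproteins. In contrast to *hsp90*, *hsp70*, *hsp60* and *ssc70*, *bipA* was alike in the flasks at 0 min, at 9405, 8444 and 9502. In flask 1 its level was 14100.1 at 5 min and 13111 at 15 min, and in flask 2 it was 13275 at 5 min and 14001 at 10 min. Flask 3 was at 6952 and 6689 at 5 and 10 min, and its highest level, 13425, came at 40 min. The highest *bipA* levels of the 3 flasks were thus alike in size and came at different times.

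At 5 min the mean log2 ratio of *bipA*, *pdiA* and *clxA* to the flask's own 0 min library was 0.46 and 0.52 in flasks 1 and 2 and -0.55 in flask 3. At 10 min it was 0.19, 0.64 and -0.68. The flasks again differed in sign. None of the 10 genes passed the test at any of the 9 times from 5 to 60 min in edgeR, where 0 to 3 of them had an unadjusted p below 0.05, and DESeq2 called 0 as well. Few genes of any kind were called at these times. At 5 and 15 min 0% of all genes were called, and at 10 min 0% were called higher and 0.0121% lower. At 20, 25, 30, 40, 50 and 60 min, 0.0483%, 0.205%, 1.31%, 1.81%, 3.49% and 5.22% of all genes were called higher, and 0.109%, 0.241%, 0.712%, 1.38%, 2.92% and 3.88% lower.

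**Figure D4:**
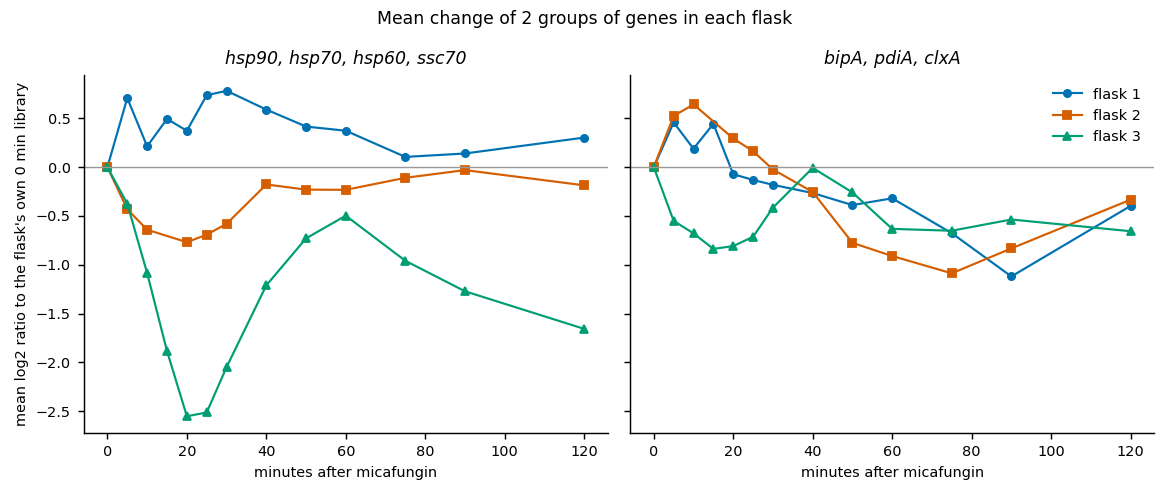
Mean log2 ratio to the flask's own 0 min library against minutes after micafungin, for *hsp90*, *hsp70*, *hsp60* and *ssc70* (left) and for *bipA*, *pdiA* and *clxA* (right), with a line for each flask. On the left flask 3 reaches -2.55 at 20 min while flask 1 is at 0.37. On the right all 3 flasks lie below 0 from 50 to 120 min. At 40 min flask 3 is at -0.007, with *bipA* alone at 0.50.

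Late, the 9 *bipA* levels ran from 3275 (flask 1, 90 min) to 7097.5 (flask 3, 75 min), with a median of 5551, and all 9 were below the 3 libraries at 0 min. The same was true of *clxA*, whose level was 3786, 3968 and 5491 at 0 min and 1663 to 3400 late, with a median of 2930. For these 2 genes the late and 0 min groups did not overlap, which was not counted over all genes tested. By edgeR, *bipA* fell by 0.82 on the log2 scale late (SE 0.29, adjusted p 0.0347) and *clxA* fell by 0.77 (SE 0.24, adjusted p 0.0179), each lower in 3 of 3 flasks. Their lowest levels came at 75 min in flask 2 and 90 min in flask 1, and at 120 min the levels were higher again in both flasks. In flask 3 the lowest levels came early, at 20 min for *bipA* (6215) and 15 min for *clxA* (2621). At 120 min the values were -0.66 (adjusted p 0.188) for *bipA* and -0.52 (adjusted p 0.216) for *clxA*, which did not pass, while *clxA* passed at 75 min (-0.91, adjusted p 0.0472) and 90 min (-0.88, adjusted p 0.0483). Among all genes tested, 7.08%, 8.83% and 12.8% were called lower at 75, 90 and 120 min.

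The calls of both genes were lost in some fits with fewer libraries, while the size of the change moved less. Without the 0 min library of flask 3 the value was -0.85 (adjusted p 0.0754) for *bipA* and -0.57 (adjusted p 0.154) for *clxA*. Both calls were lost without flask 1, at -0.69 (adjusted p 0.318) and -0.80 (adjusted p 0.164), and without flask 2, at -0.76 (adjusted p 0.109) and -0.77 (adjusted p 0.052). Between early and late, *bipA* fell by 0.65 (SE 0.22, edgeR adjusted p 0.0176) and *clxA* fell by 0.52 (SE 0.18, edgeR adjusted p 0.0248). By flask, the late minus early difference was -0.74, -1.01 and -0.16 for *bipA* and -0.68, -0.95 and 0.10 for *clxA*, so flask 3 was not lower late than early for *clxA*. Against 0 min, the late log2 ratio of *clxA* was -0.73, -0.82 and -0.82.

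For *pdiA*, 7 of the 9 late levels were below the 0 min levels of 4042, 3980 and 5711, with a late range of 2348 to 4154. Its late change was -0.45 (SE 0.19, edgeR adjusted p 0.0758), lower in 3 of 3 flasks, and did not pass. Over the 38 libraries *pdiA* followed *clxA* with an r of 0.969 and *bipA* with an r of 0.902. Within flask 3 the r of *bipA* was 0.72 with *pdiA* and 0.765 with *clxA*, beside 0.922 to 0.979 in flasks 1 and 2. The 5 genes most like *bipA* were AN0847 (r 0.967), AN1117 (r 0.957), AN0248 (r 0.942), AN2738 (r 0.938) and *clxA* (r 0.934), and 45 of 8289 genes had an r above 0.8.

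*hacA* encodes the transcription factor of the unfolded protein response. Its level was 4736, 3922 and 4639 at 0 min and 3613, 3185 and 3369 at 120 min in flasks 1, 2 and 3. These groups did not overlap, which was not counted over all genes tested. The 120 min change of -0.40 did not pass the test (SE 0.15, edgeR adjusted p 0.0522). Over the late window 7 of the 9 levels were below all 0 min libraries, and flask 3 was at 4613 and 4550 at 75 and 90 min, close to its own 0 min level. Late, *hacA* fell by 0.37 (SE 0.12, edgeR adjusted p 0.0223), with log2 ratios of -0.48, -0.49 and -0.17, and between early and late it fell by 0.46 (SE 0.09, edgeR adjusted p 0.000178). The late call held without the 0 min library of flask 3 (-0.44, adjusted p 0.029) and was lost without flask 1 (-0.32, adjusted p 0.303). In flasks 1 and 2 *hacA* went with *bipA*, with an r of 0.885 and 0.973, and in flask 3 the r was 0.149. In that flask the *hacA* level stayed between 4550 and 5566 up to 90 min while *bipA* ranged from 6215 to 13425.

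Tested over the whole course, by a joint edgeR test of the 12 later times, 2 of the 10 genes passed, *hsp104* (adjusted p 0.000328) and *hacA* (adjusted p 0.0115), against 23.6% of all genes tested. Without flask 1, none passed. Without flask 3, *bipA*, *clxA* and *pdiA* passed as well, 5 genes in all, and without flask 2 only *hsp104* did.

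Another 12 chaperone, co-chaperone and sensor genes were picked by name and annotation rather than by their values. Late, 2 of the 12 were called higher and 3 lower by edgeR, against 17% and 14.2% of all genes tested, so the share called higher was near that of all genes. Their median log2 fold change was -0.12, beside -0.02 over all genes tested. *hsp30*, a small heat shock protein gene (AN2530), rose by 1.40 late (SE 0.20, adjusted p 5.2e-06). The mean level at 0 min was 880 ± 534 (SD, n = 3), and the mean at 120 min was 2889 ± 1265. It was higher in 3 of 3 flasks late, with log2 ratios of 1.83, 1.26 and 1.00. *hsp78* (AN1163), whose budding yeast counterpart is the mitochondrial relative of Hsp104, rose by 0.53 (SE 0.15, adjusted p 0.00955), with log2 ratios of 0.95, 0.61 and 0.01.

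The 3 that fell late included *sti1* and AN2731, which were among the genes most like *hsp70* above. *sti1* (AN9124) fell by 0.60 (SE 0.17, edgeR adjusted p 0.00849), AN2731 fell by 0.74 (SE 0.27, edgeR adjusted p 0.0397), and AN2051, annotated as an Hsp90 co-chaperone, fell by 0.38 (SE 0.13, edgeR adjusted p 0.0264). *sti1* and AN2731 were each lower in 3 of 3 flasks late, and early they were higher in flask 1 and lower in flasks 2 and 3, as *hsp70* was. Their r with *hsp70* comes from these same libraries, so the shared signs are not separate support for a likeness. That early order of signs was seen in 6 of the 10 genes and in 11.6% of all genes tested. *ireA* (AN0235), the ER sensor, differed by -0.09 late (SE 0.11, edgeR adjusted p 0.592), and *hsp88* (AN1047), an Hsp110-type chaperone gene, by -0.46 (SE 0.20, edgeR adjusted p 0.0918).

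**Figure D5:**
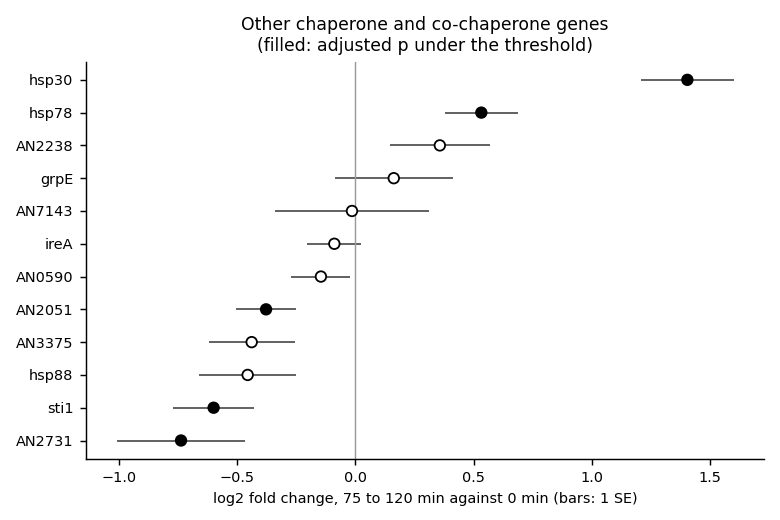
Fitted log2 fold change at 75 to 120 min against 0 min for the 12 further chaperone, co-chaperone and sensor genes, with bars of 1 SE from edgeR and filled points for an adjusted p below 0.05. *hsp30* (1.40) and *hsp78* (0.53) are filled above 0, and AN2051, *sti1* and AN2731 (-0.74) are filled below 0.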

How the data were processed

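Counts per gene from 38 RNA-seq libraries were analysed. The authors aligned reads with HISAT2 2.1.0, counted them per gene with HTSeq-count 0.9.1 and deposited raw counts in 12 tables, whose 33 repeated 0 min columns were identical. Genome build and strand setting: not given in the sources used here. None of the 10 genes overlaps another in RefSeq (ASM1142v1), used for names and gene spans, but reads shared with paralogs, as in the Hsp70 family, could be misassigned. The 71 columns of normalized values and the authors' fold changes and p-values were not used.

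Replicate 1, 2 and 3 (flasks) and time came from the labels. Genes with a read in at least 2 replicates at every time were fitted in R 4.3.3 with edgeR 4.0.16 (TMM, quasi-likelihood test, replicate block, threshold 0.05). The fit was tried on simulated data with a flask effect that was constant over time and libraries otherwise independent. That trial does not cover flasks that change differently over time, as seen here. An SE is the size of a fold change divided by the root of its F statistic. Normalized counts use size factors of DESeq2 1.42.0, with a pseudocount of 1 for log2 values. Since a flask was sampled in series, its number pairs libraries. Their deviations from time means had a median r of 0.157, 0.435 and 0.337 within flasks 1, 2 and 3 and -0.067, -0.227 and -0.152 with other flasks.

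All 10 genes are named, and for *hsp70*, *hsp104* and *bipA* the 5 genes with the highest r. The genes, lists, windows and tests were chosen with earlier results of these data known. The 12 further genes came from RefSeq symbols and the study's annotation, before their values were read in this work. Planned lists by protein motif or product name were not built. Alternatives were DESeq2, its size factors in edgeR, other filters, no block, each replicate or the second 15 min library left out or moved, 2 time points alone, and limma 3.58.1 on 1 value per flask. Leaving out the 0 min library of flask 3 was added after the data were seen.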

Additional observations from a re-analysis of the deposited data

Results flagged for a closer look

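For 5 of the 10 genes the difference from 0 min was not the same at 20 to 30 min and at 75 to 120 min, by edgeR's test of the late minus the early mean, with the log2 differences given above. They were higher late for *hsp104* (1.22) and *hsp60* (0.81) and lower for *bipA* (-0.65), *clxA* (-0.52) and *hacA* (-0.46). Of all genes tested, 18.8% were called higher and 20.7% lower late than early, so such calls were common. The sign of the difference was the same in 3 of 3 flasks for *hsp104*, *hsp60*, *bipA* and *hacA*, and in 2 of 3 for *clxA*. How often all flasks shared a sign of this late minus early difference among all genes was not counted. With a single value per flask in limma none of the 5 passed the threshold.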

How the results depend on the processing

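No called value of the 10 genes changed sign under any setting. In the joint test of all times, 2 of the 10 genes passed, 4 with DESeq2 and 1 with no replicate block. Leaving out 1 replicate gave 0 (without replicate 1) to 5. At 120 min 1 was called higher and 0 lower. DESeq2 called 3 lower there, and leaving out 1 replicate gave 0 to 1 higher and 0 to 1 lower. Late, 1 was called higher and 5 lower. A fit with no replicate block called 1 lower. Without the 0 min library of flask 3 the count was also 1 lower, and with 1 value per flask in limma 0 higher and 0 lower. Leaving out 1 replicate gave 0 to 1 higher and 0 to 3 lower. The late call of *hsp70* was also lost with no filter, with a filter at a normalized count of 10, and without the second 15 min library (adjusted p 0.0531, 0.0546 and 0.0507). Late against early, 2 were called higher and 3 lower, 0 and 0 with 1 value per flask, and 1 to 3 higher and 1 to 4 lower without 1 replicate. Of the 120 pairs of gene and time, 3 were called higher and 2 lower, against 1 and 0 with no replicate block, 1 and 0 in fits of 2 time points with the block, 6 lower with DESeq2, and 0 lower without the 0 min library of flask 3. Leaving out 1 replicate gave 0 to 3 higher and 0 to 6 lower. The cause of these changes was not tested. Removing the block moved no other of these counts of the 10 genes.

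Over all genes, the course calls went from 1960 to 851 with no replicate block and to 394 and 1140 without replicate 1 and 3. Late calls went from 1407 higher and 1174 lower to 777 and 739 with no replicate block, 550 and 481 without replicate 1, and 1 and 0 with 1 value per flask. At 120 min they went from 1379 and 1057 to 749 and 547 with no replicate block, 640 and 399 without replicate 1, 795 and 549 without replicate 3, and 266 and 100 in a fit of 2 time points. Early, the 100 higher and 89 lower became 0 and 17 with no replicate block, 152 and 156 with DESeq2, 7 and 11 without replicate 1, 15 and 42 without the 0 min library of flask 3, and 0 and 0 with 1 value per flask. Without replicate 3 there were 28 higher early, and with the second 15 min library moved to replicate 2 there were 59. Late against early, 1562 and 1719 became 847 and 1014 without replicate 1 and 181 and 85 with 1 value per flask.

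Each of the 10 genes had at least 412 reads in every library, and each comparison rests on 3 flasks, except that 15 min has 2 libraries. Which of depth and flask number limits the results more was not tested. The *hsp70* call lies at the threshold.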
